A study of Mus musculus with 12 samples.

Results

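The genes described here are 10 members of the Notch pathway, chosen by name: the ligands *Dll1*, *Dll4*, *Jag1* and *Jag2*, the receptors *Notch1*, *Notch2* and *Notch3*, and the targets *Hes1*, *Hey1* and *Nrarp*. All 10 were found among the 15687 genes with a deposited value. They were measured by RNA sequencing in 12 mouse tumors, grown under the skin of 8-week-old male C57BL6/J mice from 1000000 cells of mTc11, a mouse lung cancer line, in Matrigel reduced in growth factors. The 6 CTL tumors grew from cells given a control shRNA (genotype label WT) and the 6 *Filip1l*-knockdown tumors from cells given an shRNA against *Filip1l*, and all were taken 24 days after injection. Both came from puromycin-selected mixed clones, and of the shRNA sequences the study made, the sources used here do not say which the sequenced tumors carried. Every tumor held cancer cells together with host stroma, vessels and immune cells. The comparison asks how the tumor transcriptome differed when *Filip1l*, which encodes a filamin A interacting protein, was knocked down. Control and knockdown cells were transduced and selected separately, so a difference between these cell populations cannot be told apart from the knockdown. The spread between the 6 tumors of a group does not measure such a difference. *Filip1l* itself spanned 1983 to 2542 normalized counts across CTL tumors against 1670 to 2184 after knockdown. The groups overlapped, and the fold was a modest 0.83 (limma adjusted p = 0.00998, by the test described below).

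In Notch signaling, a delta-like or Jagged ligand on one cell binds a Notch receptor on its neighbor, which is then cut by an ADAM protease and by γ-secretase. The freed intracellular domain enters the nucleus, binds RBPJ and Mastermind-like coactivators and switches on targets such as the Hes and Hey repressors and *Nrarp*, a feedback inhibitor that destabilizes the intracellular domain. In the airway the pathway balances secretory against ciliated fates. In tumors it also acts in the host compartment, *Dll4*, *Notch1* and *Notch4* in endothelium and *Notch3* in pericytes and smooth muscle.

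The values are normalized counts, that is reads per gene divided by a size factor of each tumor, and they compare the same gene between tumors. Log2 fold changes are *Filip1l*-knockdown minus CTL on the scale log2(normalized count + 1), from limma, with p adjusted by Benjamini-Hochberg over all 15687 genes. A gene passed the test at an adjusted p under 0.05, and the study's own thresholds add an absolute log2 fold change over 1. Reads on listed genes ran from 17834745 in CTL replicate 5 to 32419578, so that 3 reads, taken as the floor, corresponded to 2.59 to 4.48 normalized counts and every member lay far above it in every tumor. CTL replicate 5, the shallowest library, and *Filip1l*-knockdown replicate 1, the tumor farthest from the others of its group (mean distance 93.9 on the log2 scale over all genes, against 77.0 to 81.0 in the other 5), stand apart, and values without them are given where they change a result.

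In the comparison, *Dll1* rose while *Notch1*, *Hes1* and *Nrarp* fell, and the other 6 members did not pass the test. That is 4 of 10 members, 1 higher and 3 lower, and across all genes 41.9% passed, 21.1% higher and 20.7% lower, so the members' share is close to the background and is no result about them as a set. Their median log2 fold change was -0.19, beside 0.01 over all genes. No member reached the study's fold threshold by limma, edgeR or DESeq2 (0 of 10, where 10.2% of all genes did, 6.2% higher and 3.97% lower). An unadjusted limma p under 0.05 was held by 5 of 10 members and by at least 41.9% of all genes. In none of the 10 did the 2 groups separate completely, which 21.5% of all genes did. Without CTL replicate 5 and *Filip1l*-knockdown replicate 1, 3 members passed, beside 6512 of all 15687 genes.

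**Figure D1:**
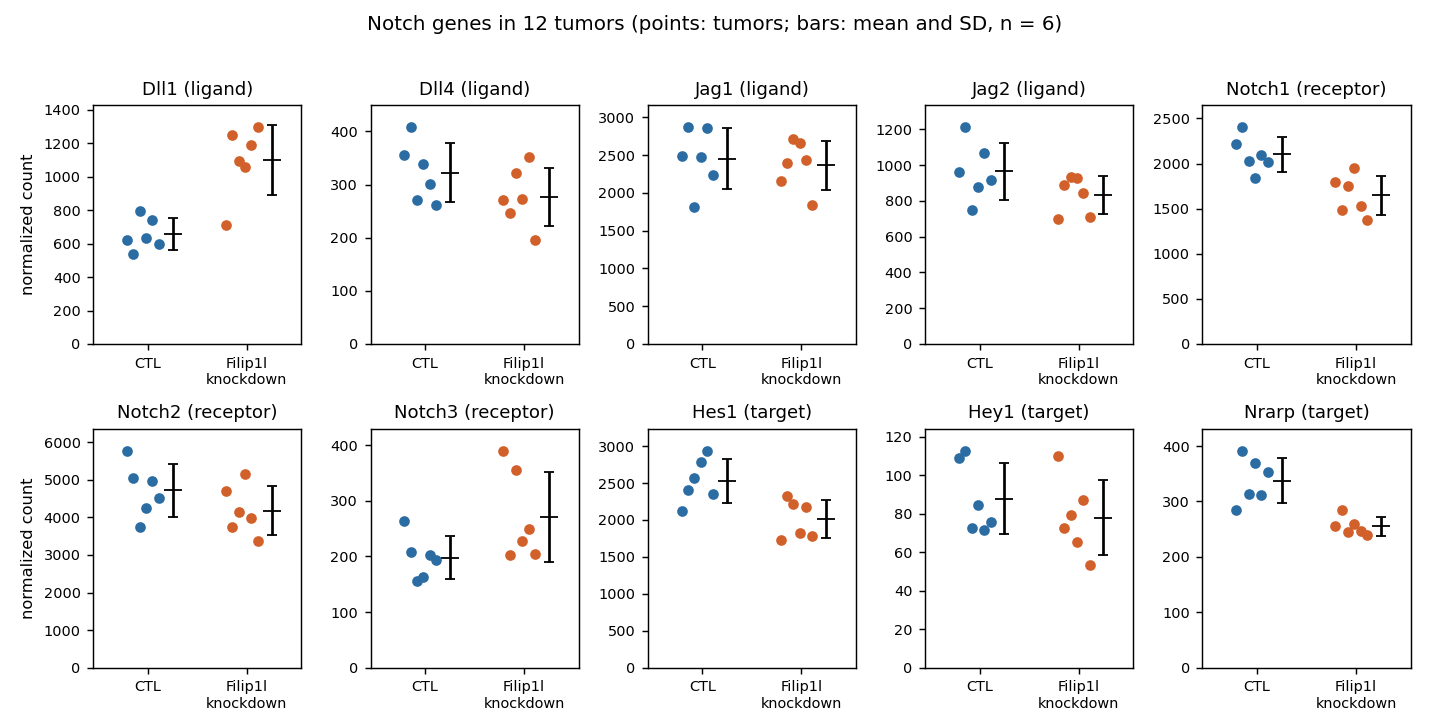
Normalized counts (y axes, linear, from 0) of the 10 members in 6 CTL tumors (blue) and 6 *Filip1l*-knockdown tumors (orange), with the mean and SD of each group in black. *Dll1* is at 1060 or more in 5 of 6 knockdown tumors and at 794 or less in every CTL tumor, while *Notch1* and *Nrarp* each have 5 knockdown tumors below the lowest CTL tumor.

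The DNA just before a RefSeq start of 3 of the members that passed is shown because *Notch1* and *Nrarp*, receptor and feedback target of one pathway, moved together and *Dll1* moved the other way. Each run is the 250 bases before a RefSeq transcription start on GRCm38.p6, read 5′ to 3′ on the gene's strand, with matches to 3 short motifs in capitals. The motifs, searched on both strands, were the RBPJ core TGGGAA, the TCF/LEF core TCAAAG and the E box CACGTG, a sequence that many basic helix-loop-helix factors can bind. *Nrarp* is at chr2:25180508-25180757 (+ strand), *Notch1* at chr2:26503823-26504072 (- strand) and the window of the more upstream of the *Dll1* starts at chr17:15376933-15377182 (- strand), where the long non-coding RNA A930024N18Rik is annotated on the opposite strand. The *Notch1* window lies inside the span of the gene given below (chr2:26457903-26516663). The *Dll1* window lies upstream of that gene's span (chr17:15367354-15376872), and the window of its other start is not printed.
Nrarp: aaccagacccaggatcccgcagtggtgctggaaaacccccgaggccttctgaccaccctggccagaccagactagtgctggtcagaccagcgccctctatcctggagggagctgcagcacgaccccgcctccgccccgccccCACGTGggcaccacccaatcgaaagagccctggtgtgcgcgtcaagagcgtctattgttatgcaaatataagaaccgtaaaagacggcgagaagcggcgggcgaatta
Notch1: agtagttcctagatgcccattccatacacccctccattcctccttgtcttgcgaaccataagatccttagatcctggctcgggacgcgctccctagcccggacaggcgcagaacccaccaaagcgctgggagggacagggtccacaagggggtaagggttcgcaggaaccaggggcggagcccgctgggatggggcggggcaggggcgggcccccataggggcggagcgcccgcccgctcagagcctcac
Dll1: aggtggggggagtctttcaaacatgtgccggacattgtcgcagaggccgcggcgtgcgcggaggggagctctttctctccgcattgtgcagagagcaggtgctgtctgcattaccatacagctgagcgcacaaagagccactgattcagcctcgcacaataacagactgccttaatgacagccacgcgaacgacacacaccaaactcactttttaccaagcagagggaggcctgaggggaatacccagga
The only match was an E box in *Nrarp*, beginning 108 bases before the start. Of all 32851 RefSeq promoters, 6.02% held an E box in a window of this length, 21.6% an RBPJ core and 13.8% a TCF/LEF core. Of the 10 members 8 had a window in the RefSeq table (*Hes1* and *Hey1* had none), and in these 8 the E box of *Nrarp* was again the only match. A match describes letters and is not evidence of binding.

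Among the ligands, *Dll1* was the one that changed. *Dll1* (ENSMUSG00000014773, chr17:15367354-15376872, - strand) encodes delta-like 1, a transmembrane ligand that activates Notch on neighboring cells. CTL tumors spanned 541 to 794 normalized counts (median 628) and *Filip1l*-knockdown tumors 714 to 1296 (median 1141). All 6 knockdown tumors lay above the CTL median, and 1 of them, replicate 1, lay inside the CTL range at 714. The mean went from 656 ± 94.9 to 1100 ± 210 (SD, n = 6 each), a 1.66-fold rise with a log2 fold change of 0.73 (SE, standard error, 0.14, 95% interval 0.44 to 1.02, limma adjusted p = 0.000642). An exact permutation test, two-sided and over every arrangement of the group labels, gave p = 0.00649, and the smallest p it can give is 0.00216. The log2 fold change was 0.85 without *Filip1l*-knockdown replicate 1 and 0.89 with CTL replicate 5 left out as well. A930024N18Rik shares exonic bases with *Dll1* on the opposite strand, the strand setting of the counting is not given in the sources used here, and it had means of 40.1 and 45.9 normalized counts.

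*Dll4* (ENSMUSG00000027314, chr2:119325784-119335962, + strand), the delta-like ligand of sprouting endothelium, spanned 261 to 408 normalized counts in the CTL group (median 320) and 196 to 351 in the knockdown group (median 272). The groups overlapped for most of their range, and the log2 fold change was -0.23 (SE 0.15, 95% interval -0.54 to 0.08, limma adjusted p = 0.230). Gm14207, on the opposite strand, shares exonic bases with *Dll4* and had means of 13.2 and 9.48 normalized counts. *Jag1* (ENSMUSG00000027276, chr2:137081456-137116644, - strand), the more abundant of the Jagged ligands here, had 1806 to 2869 (median 2476) and 1842 to 2716 (median 2411) normalized counts. All 6 knockdown tumors lay within the CTL range, and the log2 fold change was -0.05 (SE 0.12, 95% interval -0.30 to 0.21, limma adjusted p = 0.780). *Jag2* (ENSMUSG00000002799, chr12:112907819-112929776, - strand) had 749 to 1212 (median 939) and 698 to 932 (median 865) normalized counts. All 6 knockdown tumors were below the CTL median of *Jag2* but 4 lay inside the CTL range, with a log2 fold change of -0.21 (SE 0.11, 95% interval -0.45 to 0.04, limma adjusted p = 0.163). These intervals leave room for changes of up to -0.54 in *Dll4*, and so the ligands that missed the threshold cannot be called equal between the groups.

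Of the receptors 1 passed the test. *Notch1* (ENSMUSG00000026923, chr2:26457903-26516663, - strand) encodes the receptor with the broadest role in development and in T cells. CTL tumors spanned 1840 to 2403 normalized counts (median 2063) and *Filip1l*-knockdown tumors 1377 to 1948 (median 1636). Every knockdown tumor was below the CTL median and 5 of 6 were below the lowest CTL tumor. Its mean fell from 2102 ± 192 to 1646 ± 216 (SD, n = 6 each), that is a log2 fold change of -0.36 (SE 0.09, 95% interval -0.55 to -0.17, limma adjusted p = 0.00464), with an exact permutation p of 0.00433. *Notch1* shares exonic bases on the opposite strand with 0610009E02Rik, at 10.6 and 10.9 normalized counts, and with Gm13568.

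*Notch2* (ENSMUSG00000027878, chr3:98013527-98150361, + strand), a broadly expressed receptor, had 3737 to 5765 (median 4750) and 3373 to 5141 (median 4059) normalized counts. Its groups overlapped, and the log2 fold change was -0.17 (SE 0.11, 95% interval -0.42 to 0.07, limma adjusted p = 0.236). *Notch3* (ENSMUSG00000038146, chr17:32120820-32166852, - strand), the receptor of mural cells, was low, spanning 156 to 263 normalized counts in the CTL group (median 198) and 203 to 389 in the knockdown group (median 239). All 6 knockdown tumors were above the CTL median of *Notch3* and 2, replicates 1 and 3, were above the CTL range. The log2 fold change was 0.43 (SE 0.18, limma adjusted p = 0.0735, exact permutation p = 0.0628), short of the threshold. It passed when CTL replicate 1 (0.52), *Filip1l*-knockdown replicate 2 (0.50) or *Filip1l*-knockdown replicate 6 (0.50) was left out, with limma adjusted p of 0.0400, 0.0486 and 0.0489, and was 0.32 without *Filip1l*-knockdown replicate 1. *Notch3* also passed by DESeq2 (0.46, DESeq2 adjusted p = 0.0434), with trends of GC content and length removed (0.56, limma adjusted p = 0.0106) and on a scale relative to *Rpl7*.

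The targets were lower or undecided. *Hes1* (ENSMUSG00000022528, chr16:30064384-30067796, + strand), a basic helix-loop-helix repressor that Notch induces in many tissues, spanned 2126 to 2934 normalized counts in the CTL group (median 2483) and 1734 to 2326 in the knockdown group (median 2002). All 6 knockdown tumors were below the CTL median and 3 were below the lowest CTL tumor. *Hes1* fell from 2526 ± 297 to 2011 ± 260 (SD, n = 6 each), that is a log2 fold change of -0.33 (SE 0.09, 95% interval -0.53 to -0.13, limma adjusted p = 0.0118, exact permutation p = 0.0152). Without CTL replicate 5 and *Filip1l*-knockdown replicate 1 its log2 fold change was -0.25 and the limma adjusted p 0.05002, just over the threshold, while each fit that left out 1 tumor kept the call.

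*Nrarp* (ENSMUSG00000078202, chr2:25180758-25183339, + strand), the feedback inhibitor, spanned 285 to 391 normalized counts in the CTL group (median 333) and 239 to 285 in the knockdown group (median 251). The knockdown tumors formed a narrow band, with a coefficient of variation of 6.50% against 11.98% in CTL tumors, and 5 of 6 were below every CTL tumor. Its mean fell from 337 ± 40.4 to 255 ± 16.6 (SD, n = 6 each), that is a log2 fold change of -0.40 (SE 0.09, 95% interval -0.59 to -0.20, limma adjusted p = 0.00320, exact permutation p = 0.00433). *Hey1* (ENSMUSG00000040289, chr3:8663359-8667256, - strand), a Hes-related repressor known from vessels, had 71.7 to 113 (median 80.3) and 53.3 to 110 (median 76.1) normalized counts. Its groups overlapped and the log2 fold change was -0.18 (SE 0.19, 95% interval -0.58 to 0.22, limma adjusted p = 0.479).

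The scale of the tumors bears on the 3 members that fell. When the tumors were rescaled to *Rpl7*, the reference gene of the study's qPCR, the median log2 fold change of all genes moved by 0.18, and 79.9% of the genes that passed were higher, against 50.5% with the deposited size factors. Removing trends with GC content and length lowered that share to 41.1%, and 5 members then passed, with *Hes1* at -0.56, *Nrarp* at -0.57, *Notch1* at -0.25, *Dll1* at 0.66 and *Notch3* at 0.56. On the *Rpl7* scale *Notch1*, *Hes1* and *Nrarp* still had values below 0 but no longer passed (limma adjusted p = 0.392, 0.217 and 0.181), whereas *Dll1* (0.92, limma adjusted p = 3.28e-05) and *Notch3* (0.61, limma adjusted p = 0.0473) were higher. Relative to the median of all genes on that scale the log2 fold changes were 0.73 for *Dll1*, -0.36 for *Notch1*, -0.33 for *Hes1* and -0.39 for *Nrarp*.

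Levels of different genes were compared as normalized counts per kb of exon (per kb below). *Hes1* was the highest in both groups, with a mean of 1240 per kb in CTL and 987 in *Filip1l*-knockdown tumors, above every tumor's value of any other member. In CTL tumors *Notch2* (437 per kb) and *Jag1* (421) came next with overlapping ranges. *Dll1* (155), *Notch1* (148), *Jag2* (138) and *Nrarp* (131) followed, each overlapping the next. *Dll4* (83.8 per kb) was separate from its neighbors in the order, and *Hey1* (26.9) and *Notch3* (24.4) were the lowest and overlapped. In *Filip1l*-knockdown tumors the order was the same but for 3 exchanges of neighbors, with *Jag1* (406 per kb) beside *Notch2* (388), *Jag2* (119) beside *Notch1* (116) and *Notch3* (33.5) beside *Hey1* (23.9), all with overlapping ranges. *Dll1* (261 per kb) then overlapped neither neighbor. By the longest transcript in place of all exons, *Dll1* ranked 6 and not 4 among the members in CTL tumors. *Notch1* and *Jag2* then ranked 4 and 5 in CTL and 5 and 6 in *Filip1l*-knockdown tumors, so their exchange depends on the length used.

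The make-up of the ligand and receptor pools, each gene's level per kb as a share of its pool in a tumor, is described here without a test. *Dll1* made up 14.2% to 27.8% of the ligand pool in CTL tumors (mean 19.8% ± 4.43, SD, n = 6) and 23.9% to 39.6% after knockdown (mean 30.4% ± 5.49, SD, n = 6). *Jag2* took a smaller share in every knockdown tumor (13.1% to 14.6%) than in any CTL tumor (15.9% to 19.3%). *Jag1* remained the main ligand, at 52.5% and 47.3% on average, and *Dll4* had 10.5% and 8.37%. The pool itself summed to 799 ± 90.8 and 858 ± 93.1 normalized counts per kb (SD, n = 6 each). The receptor pool includes *Notch4*, which is no member of the set of 10, and it summed to 653 ± 82.1 and 638 ± 82.0 normalized counts per kb (SD, n = 6 each). *Notch1* had 20.5% to 26.4% of it in CTL and 17.2% to 18.8% in *Filip1l*-knockdown tumors, and *Notch2* 64.0% to 70.2% and 58.7% to 63.5%, in both cases with no overlap. The levels of *Notch2* and *Jag2* themselves overlapped between the groups and did not pass the test (limma adjusted p = 0.236 and 0.163). *Notch4* went from 5.05% to 8.19% without to 12.4% to 18.9% with the knockdown, and *Notch3*, with 3.44% to 4.27% and 3.74% to 6.90%, overlapped.

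**Figure D2:**
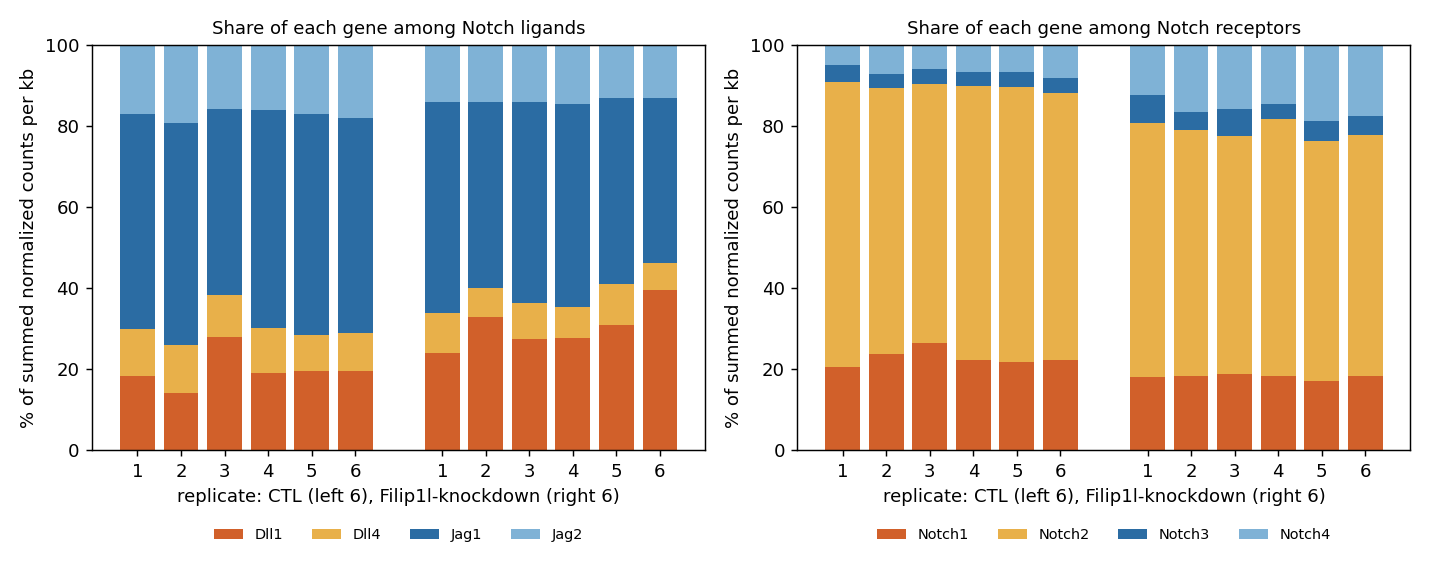
Share of each ligand (left) and each receptor including *Notch4* (right) in the summed normalized counts per kb of its pool (y axes, %), 1 bar per tumor, CTL on the left and *Filip1l*-knockdown on the right of each panel. The *Dll1* segment averages 19.8% in CTL and 30.4% in knockdown tumors, and the *Notch4* segment is wider in every knockdown tumor than in any CTL tumor.

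Of 82 further pathway genes, listed by role, 66 were in the table and 16 were not analysed here, among them *Dll3*, *Hes5*, *Hey2* and the proneural factors that Hes1 represses, such as *Atoh1*. Of the 66, 34 passed the test, 9 higher and 25 lower, with a median log2 fold change of -0.12, where 41.9% of all genes passed, 21.1% higher and 20.7% lower, with a median of 0.01. The study's thresholds were met by 4 of them, and by 10.2% of all genes. *Notch4* (chromosome 17), the endothelial receptor, spanned 265 to 421 normalized counts without the knockdown and 698 to 952 with it, a complete separation, with means of 350 ± 62.3 and 813 ± 94.7 (SD, n = 6 each) and a log2 fold change of 1.22 (SE 0.12, limma adjusted p = 2.51e-06). *Dlk1* (chromosome 12), a non-canonical ligand without the domain that activates Notch, fell from 175 to 438 normalized counts to 26.2 to 59.7, a log2 fold change of -2.62 (SE 0.27, limma adjusted p = 3.84e-06). *Bhlhe41*, a repressor of the wider Hes family, fell from a mean of 1299 ± 209 to 468 ± 145 (SD, n = 6 each), that is a log2 fold change of -1.5 (limma adjusted p = 5.07e-06). *Tle2*, a Groucho-type corepressor, fell by 1.01 on the log2 scale (limma adjusted p = 0.000279). *Tle2* fell short of the fold threshold without CTL replicate 1 (-0.98), CTL replicate 3 (-0.996), CTL replicate 6 (-0.98) or *Filip1l*-knockdown replicate 2 (-0.85), by edgeR (-0.9988) and DESeq2 (-0.99), and with a pseudocount of 8 (-0.98), GC and length trends removed (-0.93) or the *Rpl7* scale (-0.83).

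Of 9 genes of the nuclear complex 5 fell and 0 rose with the deposited size factors, by limma, edgeR and DESeq2 and also at an unadjusted limma p under 0.05, but 0 fell and 1 rose on the *Rpl7* scale. Over all genes 41.9% passed by limma, 21.1% higher and 20.7% lower, and on the *Rpl7* scale 79.9% of all genes that passed were higher. The counts of these short lists are descriptions, and no list was tested as a set. Those named by the rule were *Maml2* (log2 fold change -0.25, limma adjusted p = 0.00176) and *Maml3* (-0.39, 0.00199), coactivators of the Mastermind-like family, while *Kat2a*, the acetyltransferase with the highest level per kb, was at 0.14 (limma adjusted p = 0.152). *Rbpj*, the DNA-binding partner of the receptor, was looked at after its values were seen and fell from 3881 ± 680 to 2779 ± 395 normalized counts (SD, n = 6 each; log2 fold change -0.47, limma adjusted p = 0.00491). Of 12 corepressors 6 fell and 0 rose by limma, edgeR and DESeq2 (7 and 0 at an unadjusted limma p under 0.05), and 2 fell and 1 rose on the *Rpl7* scale. Among those that fell was *Tle1* (log2 fold change -0.79, limma adjusted p = 1.87e-06), which also passed on the *Rpl7* scale, and *Ctbp1*, the highest per kb, was at 0.01.

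Receptor handling was mixed, and its counts stand beside 21.1% of all genes that passed higher and 20.7% lower. Of 9 genes of receptor glycosylation 1 rose and 5 fell (2 and 0 on the *Rpl7* scale). *Rfng*, a Fringe transferase, rose by 0.59 (log2, limma adjusted p = 0.000211), and *Eogt* fell by 0.41 and *Poglut3* by 0.36 (limma adjusted p = 0.000444 and 0.000707). *Lfng*, another Fringe enzyme, named after its values were seen, fell by 0.48 (log2, limma adjusted p = 0.00139). Of 10 genes of receptor cleavage 3 rose and 2 fell (4 and 1 on the *Rpl7* scale), among them *Aph1a* of γ-secretase, higher by 0.33, and *Furin*, lower by 0.27 (log2, limma adjusted p = 0.000920 and 0.000785). *Adam10*, the protease that makes the ligand-dependent cut, was at 0.03 (limma adjusted p = 0.664). Of 16 genes of endocytosis and turnover 2 rose and 4 fell (4 and 1 on the *Rpl7* scale). Those that fell included *Numbl* (-0.88), *Mib1*, a ubiquitin ligase that activates ligands (-0.24), and *Nedd4* (-0.26), with limma adjusted p of 8.55e-06, 0.00672 and 0.00846. The risers were *Mib2* (0.27) and *Neurl1b* (0.28), with limma adjusted p of 0.0133 and 0.0102. Both also passed on the *Rpl7* scale, where *Mib1* was at -0.05. Of the 4 other ligands measured, *Mfap2* fell by 0.80 (log2, limma adjusted p = 0.0102) and *Mfap5*, the highest per kb, was at -0.40 (limma adjusted p = 0.133). Of 5 other Hes and Hey factors measured 1 rose and 1 fell, the riser being *Bhlhe40*, the sister gene of *Bhlhe41* (0.52, limma adjusted p = 0.000331).

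**Figure D3:**
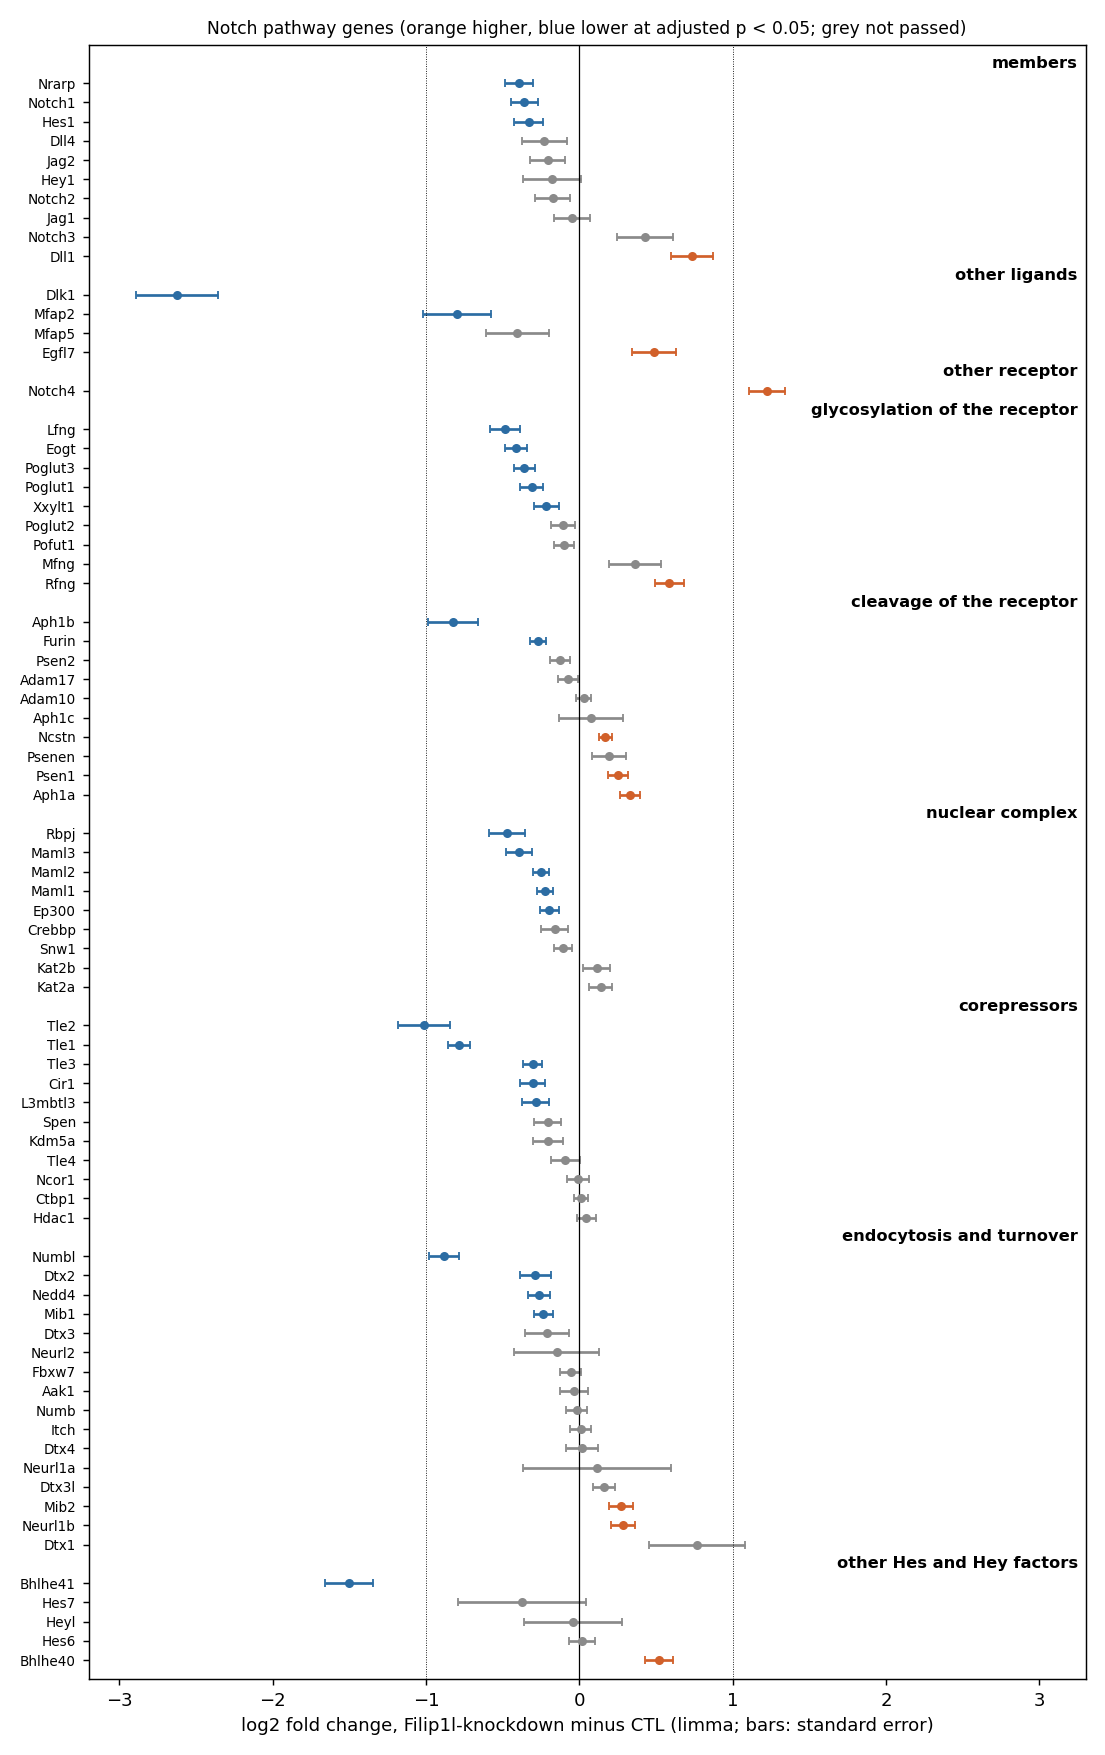
Log2 fold change (x axis, *Filip1l*-knockdown minus CTL) with its standard error for the 10 members and other measured pathway genes, grouped by role, orange where higher and blue where lower at a limma adjusted p under 0.05 and grey otherwise, with dotted lines at -1 and 1. Orange and blue mix among members, glycosylation and cleavage, and the nuclear complex and corepressors hold blue and grey only, with 1 gene of each list higher on the *Rpl7* scale.

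Because the tumors are bulk tissue, fewer cells of a type and less RNA per cell cannot be told apart, and the markers of the cells that use Notch are given beside the members. Of 17 endothelial markers 10 rose and 1 fell (median log2 fold change 0.44), where 21.1% of all genes passed higher and 20.7% lower. Their summed level was 11769 to 14264 normalized counts in CTL and 12131 to 15044 in *Filip1l*-knockdown tumors (log2 difference 0.11, exact permutation p = 0.130). This sum, with means of 13034 and 14047, leans on *Efnb2*, whose own means were 4488 and 2893 normalized counts. It is therefore no measure of how most of these markers moved. *Efnb2* (-0.64), *Flt1* (0.42) and *Ptprb* (-0.01) had the highest means, and *Efnb2*, an arterial ephrin that Notch can induce and that other cells also express, was the 1 that fell. *Efnb2* lies on chromosome 8, whose genes had a median of -0.19, and with chromosome medians removed it was at -0.44. *Notch4* rose, as 10 of these markers did, while *Dll4* (-0.23), *Notch1* (-0.36) and *Hey1* (-0.18) had values below 0, and the part of endothelial content in these values was not tested. Of 10 pericyte and smooth muscle markers 1 rose and 2 fell (3 and 0 on the *Rpl7* scale). Those that fell were *Acta2*, by 0.61, and *Tagln*, by 0.58 (log2). *Acta2* lies on chromosome 19, whose genes had a median of -0.35. The riser was *Abcc9* (0.43, limma adjusted p = 0.0479), and 0 of the list rose with the tumors rescaled to the 75th percentile. Of those that did not pass, *Pdgfrb* (-0.38), *Cnn1* (-0.46) and *Cspg4* (-0.23) were below 0. Above 0 were *Rgs5* (0.45), *Mcam* (0.29), *Kcnj8* (0.19) and *Myh11* (0.09). Their summed level was 7472 to 13013 in CTL and 5850 to 10208 normalized counts in *Filip1l*-knockdown tumors (exact permutation p = 0.108), beside a *Notch3* value of 0.43. The sum, with means of 10000 and 8206, leans on *Acta2*, whose own means were 4491 and 2959 normalized counts. It is therefore no measure of how most of these mural markers moved.

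**Figure D4:**
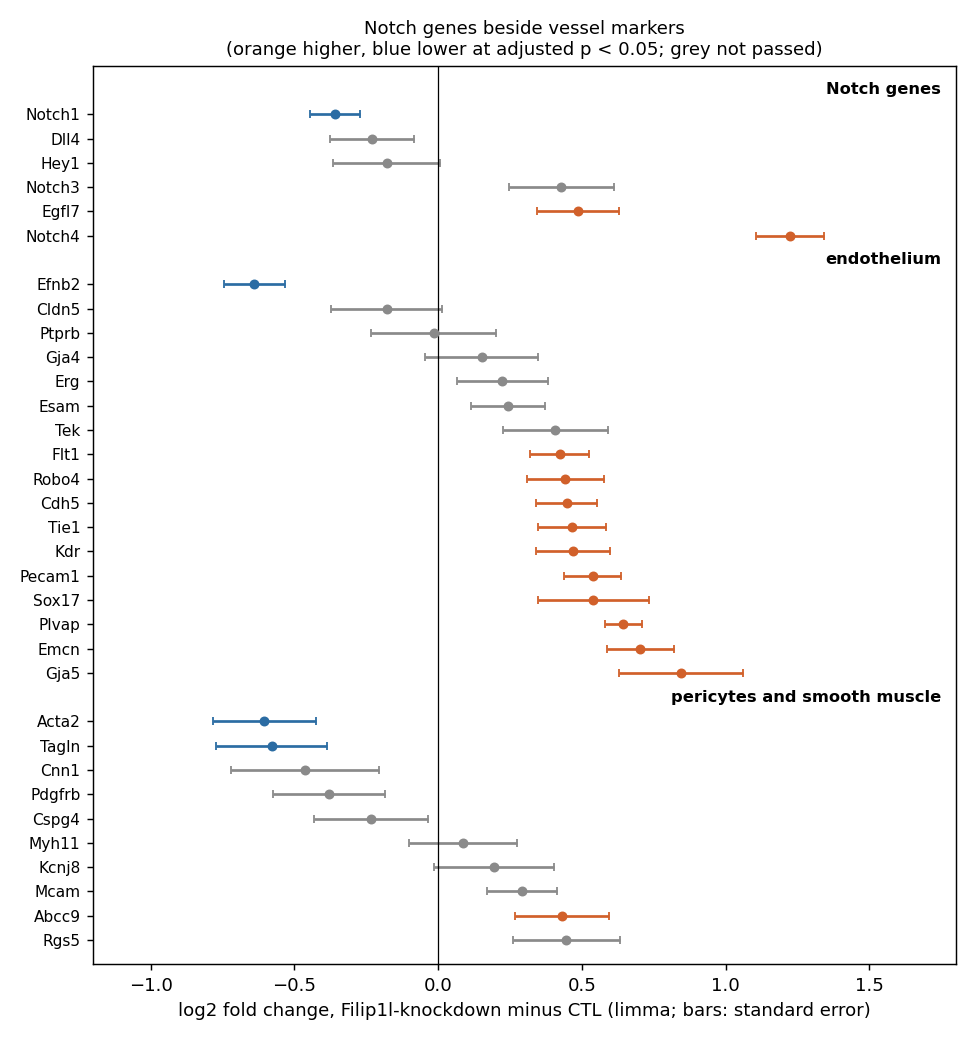
Log2 fold change (x axis, *Filip1l*-knockdown minus CTL) with its standard error for Notch genes of vessels and for the endothelial and the pericyte and smooth muscle markers, orange where higher and blue where lower at a limma adjusted p under 0.05. *Notch4* at 1.22 lies above each endothelial marker, *Dll4* and *Hey1* lie below 0, and 10 of 17 endothelial markers are orange, where 21.1% of all genes passed higher.

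The counts of the other marker lists stand beside the same shares, 21.1% of all genes higher and 20.7% lower. Of 10 epithelial markers 9 rose (*Krt8* by 1.06, *Krt18* by 0.44 and *Krt19* by 1.65, log2), and their sum separated completely, 152368 to 199828 against 223726 to 409161 normalized counts (exact permutation p = 0.00216, 0.0173 adjusted over the 8 lists, where the other 7 had 0.0635 or more). Skeletal muscle markers rose in 9 of 11 cases (*Acta1* by 2.15 and *Myh1* by 2.46, with *Myh4* at 1.68, log2), with sums of 2454 to 13300 and 5500 to 97558 normalized counts, and *Myod1* was at 0 in some CTL tumors. Of 8 fibroblast markers 3 fell (*Col1a1* by 0.76 and *Col1a2* by 0.97, with *Col3a1* at -0.52, log2), with sums of 160816 to 262944 and 75099 to 253173 normalized counts. The highest of these was *Filip1l*-knockdown replicate 1, which stands apart, and the other 5 knockdown sums (75099 to 158480) lay below every CTL sum. Of 8 macrophage markers 2 rose, 1 of them past both thresholds, which 6.2% of all genes met on the higher side. The list ran from -0.12 to 1.06 with a median of 0.21. Its 3 markers with the highest means, *C1qa*, *C1qb* and *Csf1r*, were at -0.12, -0.07 and 0.11. The macrophage sums were 12994 to 17533 and 11529 to 21446 normalized counts. Of 8 T cell markers 0 passed by limma, edgeR or DESeq2, and 0 had an unadjusted limma p under 0.05, with *Cd8a*, *Trac* and *Lck* at 0.04, 0.28 and 0.33, sums of 982 to 2561 and 1119 to 2109 normalized counts, and 1 passing on the *Rpl7* scale. Of 5 lung epithelial markers 2 rose and 1 fell (*Napsa* by 0.88, *Sftpb* by 2.80 and *Foxj1*, of ciliated cells, at -1.85, log2), with sums of 283 to 445 and 322 to 1425 normalized counts. The defining lung markers were scarce, *Nkx2-1* at 0.947 to 37.3 and 4.90 to 90.6 normalized counts and *Sftpc* at 0 in 3 CTL tumors and 1 *Filip1l*-knockdown tumor. The part of these cell types in the members' values was not tested.

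The members do not lie on the chromosomes whose genes were shifted as a whole. Chromosomes 8, 14 and 19 had median log2 fold changes of -0.19, 0.39 and -0.35, and the members lie on chromosomes 2, 3, 12, 16 and 17, where the medians were between 0.00 and 0.05, and with chromosome medians removed 4 members passed again.

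The genes that followed each member most closely from tumor to tumor, after the group means were removed, were found among the 12887 genes whose mean reached 50 normalized counts. These are the highest Pearson correlations of that many over 12 tumors that share their libraries and are descriptions only. For *Dll1* they were *Lgals3bp* (r = 0.97) and *Car9* (0.957), for *Dll4* *Bbs5* (0.908) and *Errfi1* (0.902), for *Jag1* *Arhgap39* (0.939) and *Smad7* (0.934), and for *Jag2* *Nol4l* (0.972) and *Pcgf3* (0.966). Among the receptors, *Notch1* had *Setd7* (0.943) and *Dagla* (0.941), *Notch2* had *Zfp516* (0.967) and *Macf1* (0.954), and *Notch3* had *Mrc1*, a macrophage marker (0.975), and *Dennd5a* (0.946). The targets had *Trim8* (0.908) and *Zscan22* (0.903) for *Hes1*, *Cxcl3* (0.932) and *Sema7a* (0.909) for *Hey1*, and *Znrf3* (0.881) and *Ccdc126* (0.877) for *Nrarp*. No member was among the 2 closest genes of another member.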

How the data were processed

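Total RNA of 12 tumors, 6 CTL and 6 *Filip1l*-knockdown by their labels and called biological replicates there, was sequenced. Per the submitters' processing notes the reads went through bcl2fastq 2.20, Trimmomatic 0.36, STAR 2.5.2b and featureCounts of Subread 1.5.2, with the build mm10 named. The deposited values are a normalized signal, gene counts that the authors divided by DESeq2 size factors, not corrected for length. In each tumor 100% of values were whole multiples (within 0.01) of a smallest step, taken as 1 read. Floors from reads cover counting error only, and the 95% intervals are limma's, from the spread between tumors.

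From these values log2(value + 1) was fitted with limma 3.58.1 (variance trend) in R 4.3.3. A filter at a mean of 5 removed 0 genes. With recovered reads, edgeR 4.0.16 called 1635 and DESeq2 1.42.0 called 1652 genes at both thresholds, against 1596 by limma. Of 15687 identifiers 15661 were found in GENCODE vM21 (GRCm38), and promoters came from RefSeq. Exact permutations used every arrangement of the labels. The steps were tested on simulated data. Plots used matplotlib 3.10.9 under Python 3.11.15.

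The members and lists were chosen with earlier results of these data known. Named are all members, of each other list the genes past both thresholds, otherwise the 2 with the smallest p, and the highest per kb, of marker lists the 3 with the highest mean, and for each member the 2 closest genes. *Rbpj*, *Lfng*, *Mib2*, *Neurl1b*, *Nkx2-1*, *Sftpc* and *Myod1* were named after their values were seen. So were the pericyte and smooth muscle markers other than *Acta2*, *Tagln* and *Pdgfrb*. A few results for single genes are not reported here. Alternatives were other pseudocounts, filters, scalings and fits, trends of chromosome, GC content and length, and leaving out tumors.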

Additional observations from a re-analysis of the deposited data

Results flagged for a closer look

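In 36 groups of summed or member values looked at, of which chance flags about 1 in 20, 2 tumors lay far from the others of their group. The summed T cell markers of CTL replicate 3 came to 2561 normalized counts, with the next tumor at 1553, a gap of 0.638 of the group's range, past the 95% critical value of Dixon's ratio. The summed lung epithelial markers of CTL replicate 2 came to 283 normalized counts, with the next tumor at 400.0, a gap of 0.724 of the range. No member's own values were flagged in this way.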

How the results depend on the processing

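On the *Rpl7* scale 2 members passed in place of 4 and 22 other pathway genes in place of 34, and the log2 fold changes of *Hey1* (0.0047), *Jag1* (0.14) and *Notch2* (0.011) changed sign, none of them passing. That scale moves the median of all genes by 0.18, and 6051 of all 15687 genes passed on it, in place of 6566. *Jag1* was also at 0.025 with CTL replicate 5 and *Filip1l*-knockdown replicate 1 left out together, a choice made after seeing the data, as were the fits of recovered reads, and between -0.13 and 0.022 with 1 tumor left out. Over the fits that left out 1 tumor, 4 to 5 members and 32 to 36 other pathway genes passed the test, beside 5889 to 6931 of all 15687 genes. By the stricter rule of both thresholds, 1513 to 1713 of all genes were called. *Dll1* passed in 12 of 12 of these and in 14 of 14 other alternatives, *Notch1* and *Nrarp* in 12 and 13, *Hes1* in 12 and 12, and *Notch3* in 3 and 3. Of 140 member values under the other alternatives 129, and of 120 with 1 tumor left out 115, kept direction and side of the threshold. Same-numbered tumors did not deviate together (correlations from -0.269 to 0.0990). With the replicate block 4 members, 33 other pathway genes and 5905 of all 15687 genes passed the test, and 1554 of all genes met both thresholds. Among 66 pathway genes, the genes at under 50 normalized counts, such as *Hes7*, had standard errors above 0.20 that limit what could be detected.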
